A study of Mus musculus with 18 samples.

Results

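Of 32747 gene names listed over the cell, nuclei and section tables of a mouse bladder atlas, 10 genes of the Hedgehog, Wnt and Bmp pathways were followed through every kind of library. They were chosen by name, with no threshold on their values: the Hedgehog ligand Shh, the Hedgehog receptor and targets Ptch1, Gli1 and Hhip, the ligands Wnt2, Wnt4 and Wnt5a, the ligands Bmp4 and Bmp5, and the Bmp antagonist Grem1. All mice were C57BL/6, an inbred strain, with no treatment or engineered allele given in the labels. Cells of whole bladders made 5 droplet libraries, from 22-month males (3 animals), 3-month males (3 animals), 12-month mice in 2 libraries and 24-month mice. The 12- and 24-month libraries each pooled females and males, 2 of each sex. Nuclei of 12-month mice (2 of each sex), cells of the detrusor alone (3 females, 14 months) and cells of a detrusor-enriched whole-bladder preparation (2 of each sex, 14 months) made 1 droplet library each. The detrusor is the muscular wall of the bladder. Visium sections, in which RNA is caught on a grid of barcoded spots, came from 22-month males (2 sections) and 14-month males (2 sections), with 4 males named for each. Bulk RNA was read from 3 libraries of intact tissue and 3 of dissociated bladders, all labelled with 3 females of 12 months. Animals were pooled within libraries, and nothing says whether libraries of a group came from separate animals, so p-values measure the spread between these libraries only.

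Hedgehog ligands bind the receptor Ptch1 and thereby free Smo to act on the Gli transcription factors, which switch on Gli1, Ptch1 and Hhip, so that the level of these target genes is read as a sign of a cell that receives the signal. Wnt ligands are secreted lipid-bearing proteins that act through Frizzled receptors on beta-catenin or, for Wnt5a, largely through Ror receptors. Bmp ligands act on Smad proteins and raise the Id genes, and Grem1 binds and blocks them. In the adult bladder, Shh of the urothelium, the lining epithelium, is known to act on the stroma beneath it, and stromal Wnt and Bmp signals are known to act back on the urothelium.

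Depth differed between libraries in ways that go with the groups. The median cell of the 2 male whole-bladder libraries held 1823 and 2486 unique molecular identifiers (UMIs), against 10359 to 15752.5 in the 3 mixed libraries, 1126 in the nuclei and 8182 and 8441 in the detrusor libraries. Bulk libraries held 23083752 to 68760791 reads. After filters, 35002 cells or nuclei and 4415 spots were kept. Clusters were named from marker lists, after the 10 genes and the other pathway genes had been taken out of the clustering, and the names are therefore given as "like". Whole-bladder cell libraries held 10676 fibroblast-like, 7314 urothelial-like and only 33 smooth muscle-like cells, so that no whole-bladder level is given for smooth muscle. At most 64 barcodes were shared by 2 droplet libraries.

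Shh, the Hedgehog ligand, was a urothelial transcript in every droplet library that held urothelial-like cells. Its level is given in CPM, the UMIs of the gene scaled to a common total of all UMIs of the class other than mitochondrial ones. In urothelial-like cells Shh stood at 112 CPM in the 22-month males, 182 in the 3-month males, 106 and 102 in those of 12 months and 114 at 24 months, a mean of 123 ± 33.1 (SD, n = 5). The 3-month males were high and the other 4 libraries lay close together. In fibroblast-like cells of the same libraries Shh lay between 1.68 and 8.02 CPM, with a mean of 5.67 ± 3.03 (SD, n = 5), and the ranges of the classes did not overlap. Classes are clusters of the same cells, so differences between classes are described here and not tested. Among urothelial-like cells of the 24-month library, 71.1% of 1878 held a Shh UMI (exact binomial 95% interval 69.0 to 73.2) at a median depth of 12467 UMIs. The share was 3.79% of 738 fibroblast-like cells at a median of 4999.5 UMIs and 10.7% of 112 dendritic-like cells at 6983.5 UMIs. The fibroblast-like share lay below that of dendritic-like cells, which are not known to make Shh, and was not read as expression. Free RNA was not measured.

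The other preparations placed Shh in the same class. Urothelial-like nuclei held 237 CPM of Shh (exact Poisson interval 218 to 258) and urothelial-like cells of the detrusor-enriched library 168 CPM (160 to 176). These intervals, like all intervals of single libraries, cover counting error only. The detrusor-only library held no urothelial-like cluster and no Shh UMI in any class. The 0 UMIs among its 3085 fibroblast-like cells allow a Shh level of up to 0.114 CPM.

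Within the urothelium, Shh was spread over the whole range from basal to superficial cells. Urothelial-like cells of each library were ordered by their share of superficial markers (Upk1a, Upk1b, Upk2, Upk3a and Krt20) among superficial and basal markers and divided into 3 equal parts, which are ranges of a score and not cell types. In the 24-month library Shh stood at 117 CPM in the basal part, 120 in the middle and 106 in the superficial part. In the first 12-month library the values were 111, 118 and 91.1 CPM, in the second 117, 114 and 85.6 CPM. The superficial part was the lowest of the 3 in those libraries, and it was also the lowest in the 22-month males (114, 121 and 102 CPM), the 3-month males (190, 195 and 163 CPM), the nuclei (269, 251 and 195 CPM) and the detrusor-enriched library (180, 184 and 142 CPM). The counting intervals of the basal and superficial parts overlapped in the 22-, 3- and 24-month libraries. Wnt4, a secreted ligand, was also lower in the superficial than in the basal part of 6 of the 7 libraries. It stood at 325, 261 and 215 CPM in the nuclei and 256, 198 and 143 CPM in the detrusor-enriched library. From the basal to the superficial part, the 22-month males went from 60.9 to 35.2 CPM, the 3-month males from 46.5 to 36.0 CPM (33.1 in the middle), the second 12-month library from 53.0 to 35.6 CPM (54.3 in the middle) and the 24-month library from 53.6 to 36.1 CPM. The first 12-month library was the exception, at 33.0, 31.7 and 34.7 CPM. Wnt5a had no common order over the libraries, at 66.8, 72.9 and 88.1 CPM in the first 12-month library and 146, 128 and 115 CPM in the 22-month males.

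**Figure D1:**
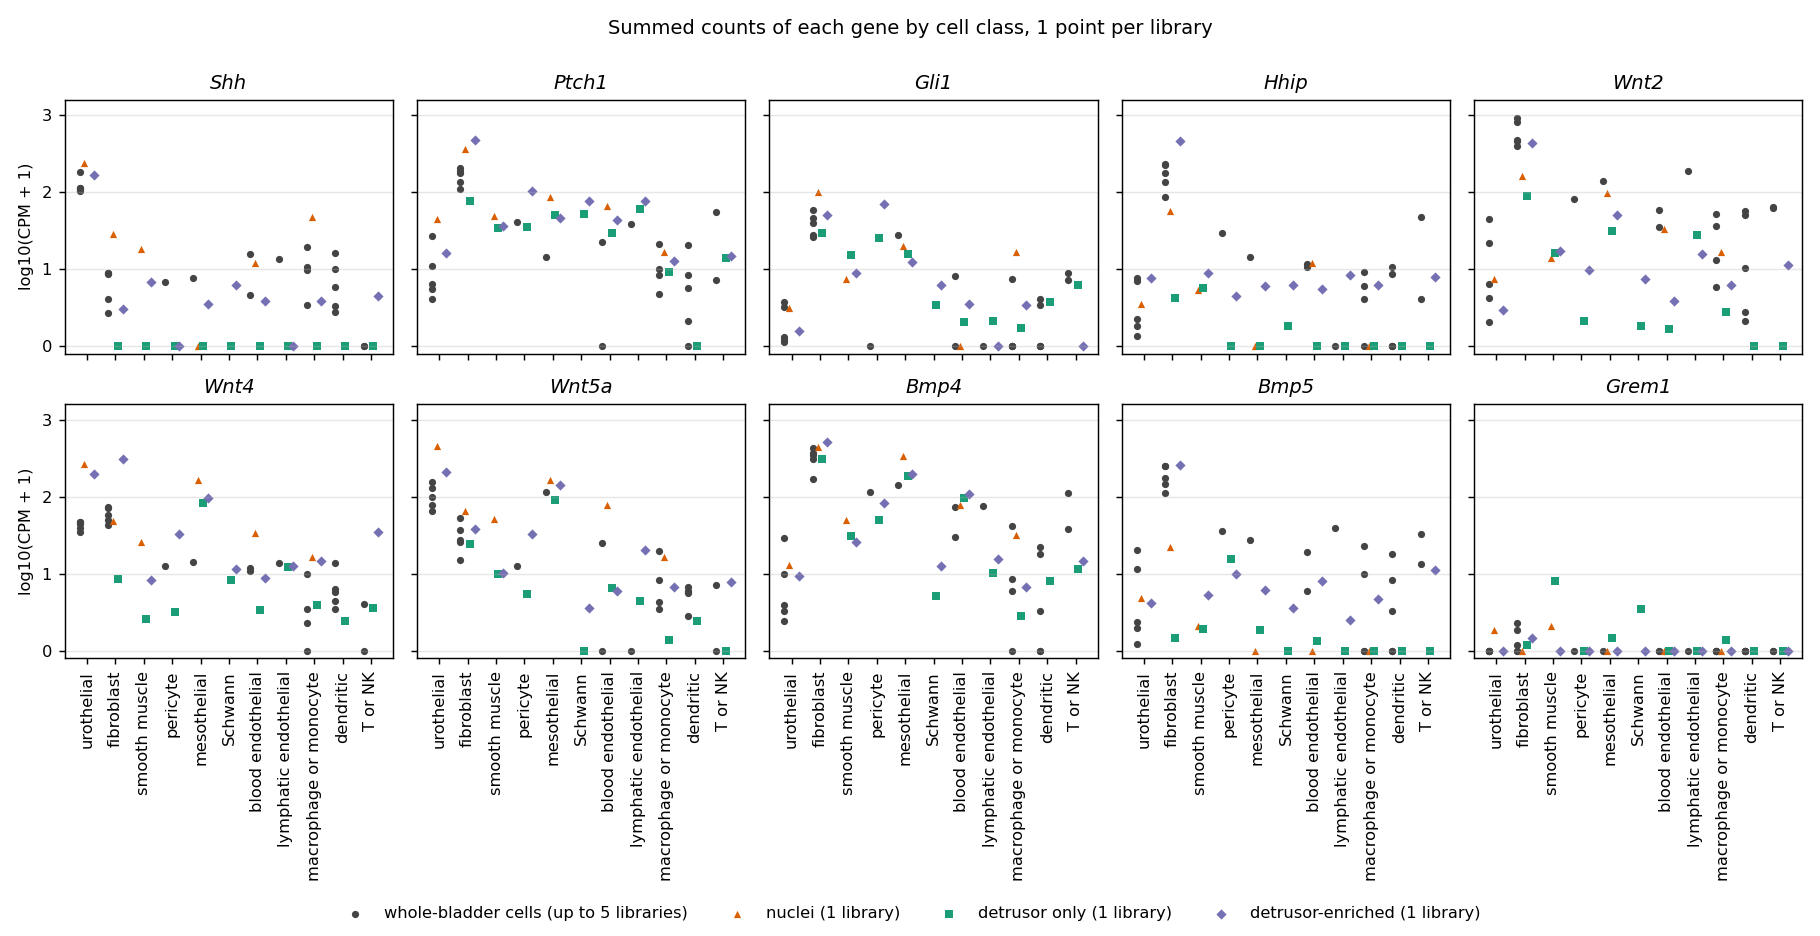
Level of each of the 10 genes in each cell class, as log10(CPM + 1), with 1 point per droplet library and class of at least 50 cells and 1 panel per gene. Shh stands highest in urothelial-like cells (102 to 237 CPM over the libraries that hold them), Ptch1, Hhip, Wnt2, Bmp4 and Bmp5 stand higher in fibroblast-like cells of every whole-bladder library than in any other class of these libraries, and Grem1 is highest in smooth muscle-like cells of the detrusor-only library (7.11 CPM) and at most 2.43 CPM elsewhere.

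The genes that receive and answer Hedgehog were higher in fibroblast-like than in urothelial-like cells of every whole-bladder library. Ptch1, the receptor, stood at 175 CPM in fibroblast-like cells of the 22-month males, 186 in the 3-month males, 136 and 110 in those of 12 months and 204 at 24 months, a mean of 162 ± 38.4 (SD, n = 5). Urothelial-like cells held 3.05 to 25.6 CPM of Ptch1, below every fibroblast value. Gli1, the transcription factor that is itself a Hedgehog target, stood at 45.2, 58.2, 24.99, 27.1 and 38.4 CPM in fibroblast-like cells in the same order of libraries, and at 0.139 to 2.73 CPM in urothelial-like cells. Hhip, a membrane protein that binds Hedgehog ligands and limits their reach, stood at 134, 221, 179, 86.7 and 229 CPM in fibroblast-like cells and at 0.347 to 6.71 CPM in urothelial-like cells. None of these pairs of ranges overlapped. The 22-month males held the highest urothelial-like values of these genes, at 25.6 CPM of Ptch1, 2.73 of Gli1 and 6.71 of Hhip. Fibroblast-like cells made up 5790 of 8420 cells of that library, and the part of their RNA in these values was not tested.

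Of the other Hedgehog genes, Smo, Gas1, Boc and Foxf1 are given as means over the 5 whole-bladder libraries. They were named after their values were seen and do not stand for the whole pathway. Smo, the signal carrier, stood at 39.5 ± 3.62 CPM in fibroblast-like and 9.08 ± 2.64 in urothelial-like cells. The co-receptor Gas1 stood at 246 ± 97.5 and 8.21 ± 8.40 CPM, and the co-receptor Boc at 30.6 ± 6.03 and 2.65 ± 1.63 CPM. Foxf1, a stromal transcription factor and Hedgehog target, stood at 395 ± 226 and 9.19 ± 9.84 CPM. Of the 2 other Hedgehog ligands, Ihh had no UMI in either class, and Dhh was a Schwann cell transcript, at 101 CPM from 124 UMIs in 390 Schwann-like cells of the detrusor-only library and 81.7 CPM from 63 UMIs in 186 of the detrusor-enriched library. Blood endothelial-like cells of those libraries held 20.3 and 10.4 CPM of Dhh.

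The 3 Wnt ligands fell into different classes. Wnt2 was a fibroblast transcript, at 819 CPM in the 22-month males, 920 in the 3-month males, 461 and 401 in those of 12 months and 468 at 24 months (mean 614 ± 238, SD, n = 5), against 1.04 to 43.8 CPM in urothelial-like cells. The 2 male libraries were the high ones, and sex there goes with shallow depth and another barcode length, which cannot be told apart. Wnt5a, the ligand of Ror receptors, was higher in the urothelium, with 129, 155, 77.1, 63.2 and 97.7 CPM in urothelial-like and 13.9, 24.8, 35.4, 52.0 and 26.3 CPM in fibroblast-like cells. The classes did not overlap in Wnt5a, but they came near each other in the second 12-month library (63.2 against 52.0 CPM). Mesothelial-like cells, which cover the outer surface, also held Wnt5a, at 113 CPM in the 1 whole-bladder library with at least 50 of them (67 cells), 163 in the nuclei, 89.7 in the detrusor-only and 142 in the detrusor-enriched library. Wnt4 lay in both classes, at 57.6 ± 12.9 CPM in fibroblast-like and 41.1 ± 5.36 CPM in urothelial-like cells (SD, n = 5), with overlapping ranges of 41.9 to 71.7 and 33.3 to 45.8 CPM. Within each of the 5 libraries the fibroblast-like value was the higher one. The values were 69.5 against 45.5, 41.9 against 38.1, 71.7 against 33.3, 48.8 against 45.8 and 55.9 against 42.6 CPM. Counting intervals overlapped in the 3-month males and the second 12-month library. The nuclei had the reverse order, with 46.7 CPM of Wnt4 in fibroblast-like nuclei, below every urothelial part given above. In the detrusor-enriched library the fibroblast-like level lay above every urothelial part.

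Bmp4 and Bmp5, ligands that hold down epithelial growth in many organs, were both highest in fibroblast-like cells. Bmp4 stood at 429, 364, 307, 166 and 341 CPM in fibroblast-like cells of the 22-month, 3-month, both 12-month and 24-month libraries. Urothelial-like cells of these libraries held 27.9, 8.80, 2.28, 1.39 and 2.86 CPM of Bmp4. Other classes held Bmp4 too, and were set against a class that should lack it. In the 22-month males 10.2% of blood endothelial-like cells (6.17 to 15.7, median 1375.5 UMIs) and 5.33% of T or NK-like cells (median 1196 UMIs) held a Bmp4 UMI, against 10.7% of urothelial-like cells (9.01 to 12.7, median 4098 UMIs). The depths differ, so these shares cannot be compared as levels. Whether endothelial-like cells of that library carry Bmp4 was not settled by them. Mesothelial-like cells of that library lay higher, at 22.4% (13.1 to 34.2, median 1979 UMIs). In the detrusor-only library 31.8% of 343 blood endothelial-like cells held a Bmp4 UMI (26.9 to 37.0, median 6010 UMIs), against 4.17% of 72 dendritic-like cells (0.868 to 11.7, median 9657.5 UMIs). Bmp5 stood in fibroblast-like cells at 250 CPM in both male libraries, 147 and 110 in the 12-month libraries and 174 in the 24-month library. Urothelial-like cells held 19.3, 10.6, 0.961, 0.208 and 1.37 CPM of Bmp5, and blood endothelial-like cells 11.4 ± 9.17 CPM from 6 UMIs (SD, n = 2). Grem1, the antagonist, was almost absent from both classes of whole-bladder cells, with 0 to 5 UMIs in fibroblast-like cells of each library and 0 in urothelial-like cells. Its highest class level was 7.11 CPM (4.86 to 10.0) in smooth muscle-like cells of the detrusor-only library, from 32 UMIs.

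A pair of fibroblast-like clusters, 1262 cells of the 22-month males and 1133 cells of the 3-month males, had more smooth muscle than fibroblast markers among their leading genes over all other cells. Without them the fibroblast means became 139 ± 37.5 CPM for Ptch1, 135 for Hhip, 682 ± 328 for Wnt2, 305 ± 91.5 for Bmp4 and 149 ± 25.6 for Bmp5 (SD, n = 5). Each still lay above every urothelial-like value.

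Within the fibroblasts, Hhip, Bmp5, Ptch1 and Wnt4 were higher in 1 kind of cluster of the whole bladder. Fibroblast-like clusters were set apart by Car3 and Cxcl14, by Pi16, Mfap5, Cd248 and Dpp4, or by Inmt, Sult1e1 and Penk, lists that were named from earlier results of these data. Hhip, the Hedgehog-binding target, stood in the Car3 clusters at 249.1, 315, 373, 260 and 444 CPM in the 22-month, 3-month, both 12-month and 24-month libraries, and in the Pi16 clusters at 21.2, 10.4, 3.17, 3.21 and 2.29 CPM. Bmp5 followed it, at 441, 345, 298, 327 and 335 CPM in the Car3 clusters and 69.8, 45.2, 10.3, 4.82 and 2.29 CPM in the Pi16 clusters. Both genes were higher in the Car3 clusters in each of the 5 libraries, with no overlap. The clusters led by smooth muscle markers were part of the Car3 clusters of both male libraries. Actg2, a smooth muscle actin, stood at 767, 25.2, 57.9, 50.1 and 104 CPM in the Car3 clusters and 27.2, 1.48, 7.14, 12.8 and 43.5 CPM in the Pi16 clusters, and the part of muscle RNA in the difference was not tested.

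Ptch1 and Wnt4 were higher in the Car3 clusters as well. Ptch1 stood there at 274, 239, 227, 227 and 326 CPM, and at 96.0, 85.1, 53.9, 53.0 and 25.2 CPM in the Pi16 clusters. Wnt4 stood at 113, 55.3, 141, 130 and 101 CPM in the Car3 and 33.1, 13.3, 8.72, 9.63 and 2.29 CPM in the Pi16 clusters. Gli1 was also higher in the Car3 clusters in each library, but its ranges met (36.7 to 70.5 against 2.29 to 40.0 CPM). Wnt2 had no common direction, at 643 against 1369 CPM in the 22-month males and 489 against 304 CPM in the 24-month library, with the Car3 clusters first. Bmp4 was lower in the Car3 clusters of the 22-month males (456 against 503 CPM) and higher in those of the other 4 libraries (287 to 442 against 41.2 to 263 CPM). The Car3 cluster of the second 12-month library held 46 cells and the Pi16 cluster of the 24-month library 61, so their values are the least precise.

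The Inmt clusters of the whole-bladder libraries, found in both male ones (992 and 343 cells at 22 and 3 months) and at 24 months (311 cells), held little Hhip, at 4.64, 7.70 and 5.95 CPM, and little Bmp5, at 16.3, 13.5 and 6.61 CPM. Ptch1 stood there at 19.0, 19.3 and 90.6 CPM. Wnt2 stood at 102, 75.1 and 487 CPM and Bmp4 at 153, 118 and 291 CPM, so that in the male libraries both lay below the Pi16 and the Car3 clusters and in the 24-month library they did not.

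The detrusor-enriched library showed the same division at higher levels. Its Car3 clusters (865 cells) held 838 CPM of Ptch1, 966 of Hhip, 584 of Wnt4 and 511 of Bmp5, and its Pi16 clusters (1366 cells) 169, 34.1, 80.3 and 43.7 CPM. The detrusor-only library went the other way for Ptch1 and Hhip. Its cluster nearest to the Car3 list (463 cells) held 60.9 CPM of Ptch1 and 1.59 of Hhip. Its Pi16 clusters (2398 cells) held 82.0 and 3.89 CPM. With the cluster nearest to the Car3 list first, Gli1 stood at 29.0 against 29.05 CPM and Wnt4 at 18.6 against 5.48 CPM. Car3 itself stood at 15.4 CPM in that cluster, against 5020 CPM in the Car3 clusters of the detrusor-enriched library and 2396 to 20680 CPM in those of the whole bladders, so it was not counted among them.

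**Figure D2:**
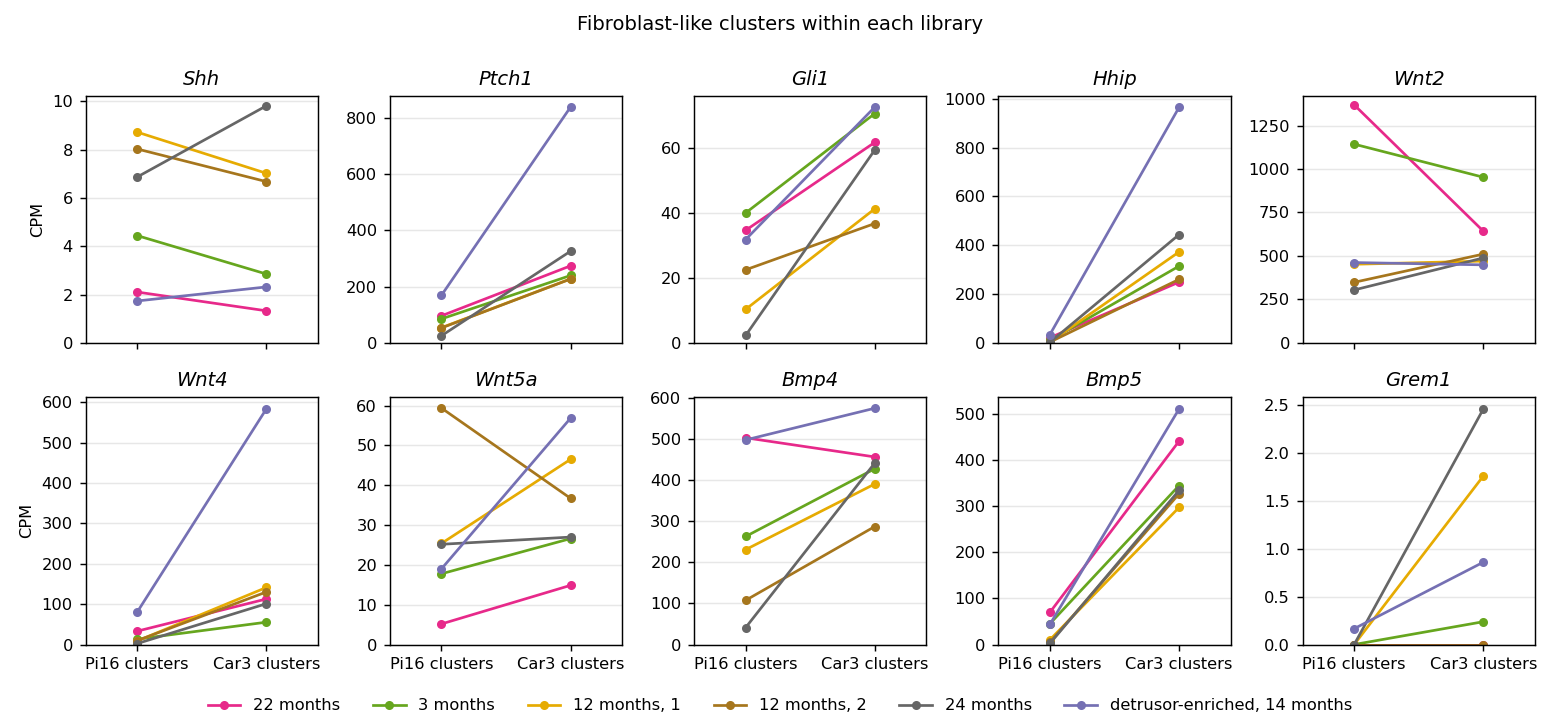
Level in CPM of each of the 10 genes in the Pi16 and Car3 fibroblast-like clusters, with 1 line per library. Lines for Ptch1, Hhip, Wnt4 and Bmp5 rise towards the Car3 clusters in all 6 libraries shown (the detrusor-only library, where Ptch1 and Hhip run the other way, is not drawn; Hhip from 2.29 to 34.1 CPM up to 249.1 to 966 CPM), whereas the lines for Wnt2 and Bmp4 run in both directions.

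Ptch1, Hhip, Bmp5 and Wnt4 were all higher in the Car3 than in the Pi16 clusters of the whole-bladder and detrusor-enriched libraries. For Ptch1, Hhip and Bmp5 the 250 bases before the listed transcript starts are given here (RefSeq, GRCm38.p6, 5′ to 3′ along the gene). Capitals mark CCACCC or its reverse complement GGGTGG, the core of the sequence that Gli factors are known to bind. The 3 windows are chr13:63565736-63565985 on the minus strand for Ptch1, chr8:80058009-80058258 on the minus strand for Hhip and chr9:75775115-75775364 on the plus strand for Bmp5.
Ptch1: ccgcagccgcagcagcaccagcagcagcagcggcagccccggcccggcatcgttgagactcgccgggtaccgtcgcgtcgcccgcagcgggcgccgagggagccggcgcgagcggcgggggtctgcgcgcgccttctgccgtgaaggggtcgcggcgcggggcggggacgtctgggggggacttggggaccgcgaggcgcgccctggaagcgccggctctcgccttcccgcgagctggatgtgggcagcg
Hhip: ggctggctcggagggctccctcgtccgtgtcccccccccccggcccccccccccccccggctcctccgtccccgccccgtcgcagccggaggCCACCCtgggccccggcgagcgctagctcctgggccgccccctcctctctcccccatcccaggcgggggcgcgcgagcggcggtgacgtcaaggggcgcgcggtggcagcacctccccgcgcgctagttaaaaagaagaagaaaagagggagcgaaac
Bmp5: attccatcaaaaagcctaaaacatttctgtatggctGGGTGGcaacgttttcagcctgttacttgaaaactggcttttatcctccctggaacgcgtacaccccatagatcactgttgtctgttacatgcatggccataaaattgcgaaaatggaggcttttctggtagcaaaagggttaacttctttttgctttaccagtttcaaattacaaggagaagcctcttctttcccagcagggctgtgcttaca
The Ptch1 window lies inside the annotated Ptch1 gene, and the Hhip window lies partly inside the annotated Hhip gene. The core was found on either strand once in the Hhip window and once in the Bmp5 window. The core was not found in the Ptch1 window or in that of Wnt4, which is not printed. It stands in 28.1% of 32851 promoter windows of the same length and in 3 of the 7 windows listed for the 10 genes (Grem1, Hhip and Bmp5). The longer Gli site GACCACCCA, which contains the core, or its reverse complement TGGGTGGTC stands in 0.225% of windows and in none of the 7. A match describes these letters only. The table lists no window for Shh, Gli1 or Wnt5a.

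The genes lie at 10 separate places in the genome (GRCm38.p6): Shh at chr5:28456840-28467101, Ptch1 at chr13:63508328-63573460, Gli1 at chr10:127329882-127341579, Hhip at chr8:79965850-80058060, Wnt2 at chr6:17985474-18032772, Wnt4 at chr4:137277635-137299501, Wnt5a at chr14:28504543-28527448, Bmp4 at chr14:46383525-46390669, Bmp5 at chr9:75775365-75900316 and Grem1 at chr2:113748675-113758648.

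Fibroblasts of the detrusor carried Bmp4 with little Hhip or Bmp5. The 3085 fibroblast-like cells of the detrusor-only library held 3.22 CPM of Hhip (2.57 to 3.98) and 0.455 CPM of Bmp5 (0.235 to 0.794), but 311 CPM of Bmp4 (304 to 318). Wnt2 stood there at 88.6 CPM and Wnt4 at 7.43 CPM. The 2366 fibroblast-like cells of the detrusor-enriched library held 461 CPM of Hhip, 256 of Bmp5, 516 of Bmp4, 429 of Wnt2 and 308 of Wnt4. Ptch1 and Gli1 were found in both, at 76.6 and 28.2 CPM in the detrusor-only and 469 and 49.5 CPM in the detrusor-enriched fibroblasts. These are single libraries that also differ in the sex of the animals, so the differences have no replicate check. Smooth muscle-like cells of the detrusor-only library held 33.1 CPM of Ptch1 and 14.2 of Gli1, and those of the detrusor-enriched library 35.8 and 7.87 CPM. Among the fibroblast-like, smooth muscle-like and unnamed clusters of the detrusor-only library, the highest Ptch1 level was 716 CPM (638 to 802). It stood in 53 cells that no marker list named, led by Tenm2, Apod and Lypd2, with 75.9 CPM of Gli1 and 2.37 CPM of Hhip.

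Over the 54 library and class sums with at least 50 cells, the genes with the most similar profile to each gene were found by Pearson's r of log2(CPM + 1). The sums share libraries, depth and classes, so r is a description. For Shh these were Cd200r3 (0.90), Acaa1b and Prss22, for Ptch1 Mmp14 (0.88), Antxr1 and Scarf2, and for Gli1 Pamr1 (0.88), Ccdc80 and Crispld2. The gene most like Hhip among 9640 genes was Bmp5 (0.84). Bmp5 itself was most like Cxcl14 (0.89), Mfap2 and the Wnt inhibitor Notum, and Wnt2 was most like Cpxm1 (0.90), Sfrp2 and Car3. Wnt4 was most like Prkci (0.77), Ppl and Me1, Wnt5a most like Nfe2l3 (0.81), Cgn and Gsta3, and Bmp4 most like Mgp (0.90), Htra1 and C1s1. No gene reached 0.55 for Grem1 (Optc, 0.549), whose counts are too few for a profile. Among the 10 genes the next closest pairs after Hhip and Bmp5 were Hhip and Wnt2 (0.77), Wnt2 and Bmp5 (0.76) and Gli1 and Bmp4 (0.75).

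In the tissue sections, Shh and its target genes were highest in spots of different composition. Spots of each section were ordered by the share of their UMIs from the urothelial marker list, which holds none of the 10 genes, and divided into 5 groups of equal size, from group 1 (least urothelial) to group 5. No spot positions were used, so the order is one of composition. Shh stood at 14.7, 23.3, 55.9, 128 and 205 CPM in groups 1 to 5 (means of 4 sections), and Wnt5a at 32.8, 37.9, 62.8, 105 and 178 CPM. Both were highest in the most urothelial spots of every section. The Hedgehog targets were highest before that point. Ptch1 stood at 34.2, 46.5, 76.3, 114 and 67.5 CPM, Gli1 at 17.9, 27.4, 37.2, 45.1 and 19.1 CPM, and Hhip at 8.44, 14.7, 37.9, 61.6 and 35.4 CPM. In 3 of the 4 sections the 3 targets were highest in group 4, and in the second 22-month section in group 3. Wnt2 and Bmp5 did the same, at 21.1, 29.1, 48.3, 67.4 and 29.0 CPM and 5.97, 12.0, 29.9, 56.8 and 32.0 CPM. Bmp4 lay between 43.9 and 50.3 CPM in groups 1 to 4 and at 21.2 CPM in group 5. Wnt4 lay at 114 CPM in group 4 and 113 CPM in group 5. These orders were not tested.

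**Figure D3:**
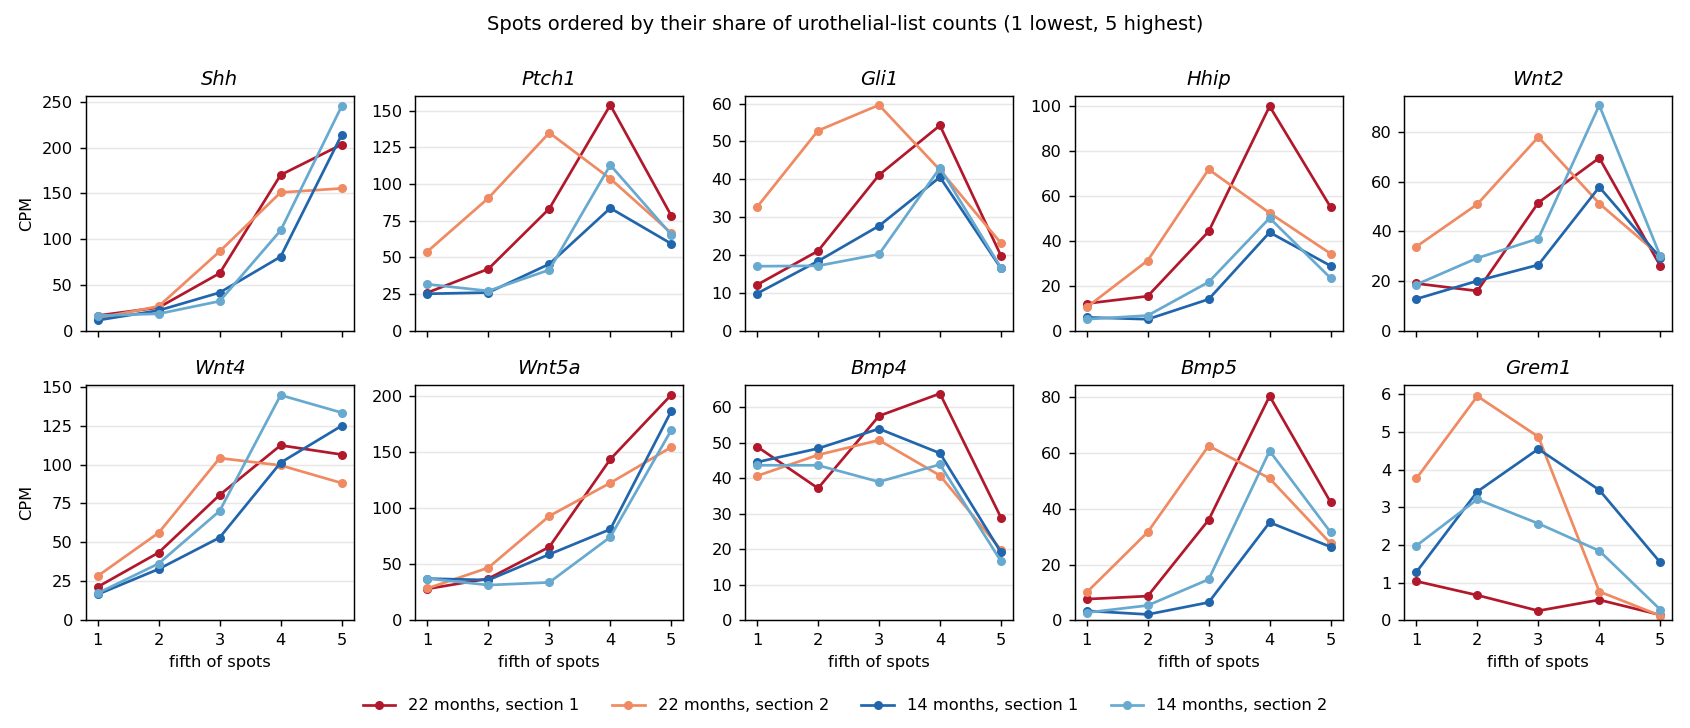
Level in CPM of each of the 10 genes in 5 equal groups of the spots of each section, ordered by the share of urothelial-list UMIs, with 1 line per section. Shh and Wnt5a are highest in group 5 in all 4 sections, and Ptch1, Gli1, Hhip, Wnt2 and Bmp5 are highest in group 4 or, in the second 22-month section, in group 3.

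The same was tested between sets of spots. The 25% of spots richest in urothelial, smooth muscle or fibroblast (stroma) list UMIs were taken in each section, spots in more than 1 such set were left out, and counts were summed per section and set. A gene was called where the adjusted p of edgeR's quasi-likelihood test, with section as a block and Benjamini-Hochberg adjustment over 13240 genes, was under 0.05. Between urothelium-rich and muscle-rich spots 9 of the 10 genes were called, 7 higher and 2 lower in the urothelium-rich spots, where 71.6% of all genes tested were called. That share is high, so the count alone says little about these genes. The median depth per spot also differed, from 31922 to 54161 UMIs in urothelium-rich and 10738.5 to 14937 UMIs in muscle-rich spots, and its part in the result was not tested.

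Shh stood at 215, 160, 207 and 241 CPM in urothelium-rich spots of the 22-month (first 2) and 14-month sections, at 112, 87.3, 40.2 and 54.1 CPM in stroma-rich spots and at 22.0, 15.8, 20.2 and 18.1 CPM in muscle-rich spots. The sets did not overlap. On the log2 scale Shh was higher by 3.29 (SE 0.25, adjusted p 5.26e-07) in urothelium-rich than in muscle-rich spots and by 1.55 (SE 0.21, adjusted p 9.73e-05) than in stroma-rich spots. Wnt5a, the other urothelial ligand, stood at 204, 151, 180 and 165 CPM in urothelium-rich spots, and at 33.4, 30.9, 41.8 and 33.1 CPM in muscle-rich spots. It was higher by 2.17 (SE 0.18, adjusted p 4.8e-07) than in muscle-rich and by 1.24 (SE 0.17, adjusted p 4.99e-05) than in stroma-rich spots. These were the 2 genes called higher in the urothelium against the stroma, where 7 others were called lower and 63.2% of all genes were called. The one not called was Wnt4, with a log2 difference of 0.36 (SE 0.17, adjusted p 0.0777). The genes called lower, beside Hhip, had log2 differences of -0.71 for Ptch1 (adjusted p 0.00335), -1.404 for Gli1 (adjusted p 6.87e-07), -1.37 for Wnt2 (adjusted p 1.85e-06), -1.66 for Bmp4 (adjusted p 4.58e-08), -0.74 for Bmp5 (adjusted p 0.0118) and -2.04 for Grem1 (adjusted p 0.00705). The ranges of Ptch1, Hhip, Bmp5 and Grem1 overlapped between these sets of spots. The call of Bmp5 ended without the first 22-month section (adjusted p 0.0709), and without the second 22-month section those of Bmp5 (-0.43, adjusted p 0.0707) and Grem1 (adjusted p 0.0585) ended while Wnt4 was called higher (0.58, adjusted p 0.00852).

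The targets were highest in the stroma-rich spots. Hhip stood there at 102, 94.3, 33.5 and 36.6 CPM, in urothelium-rich spots at 54.9, 35.4, 26.8 and 24.4 CPM and in muscle-rich spots at 14.2, 11.3, 5.39 and 7.14 CPM. Each section had the same order, stroma above urothelium above muscle. Against muscle-rich spots Hhip was higher by 2.55 on the log2 scale in the stroma (SE 0.17, adjusted p 6.37e-06) and by 1.74 in the urothelium-rich spots (SE 0.17, adjusted p 4.59e-07), and it was lower in urothelium than in stroma by a log2 difference of -0.81 (SE 0.13, adjusted p 8.64e-05). Ptch1 stood at 170, 161, 67.1 and 87.0 CPM in the stroma, 76.8, 70.7, 59.8 and 66.1 CPM in the urothelium-rich and 32.0, 56.9, 28.7 and 30.5 CPM in the muscle-rich spots. It was higher than in muscle by 1.47 (SE 0.19, adjusted p 0.000203) in the stroma and by 0.76 (SE 0.19, adjusted p 0.00323) in the urothelium-rich spots. Gli1 was higher in the stroma than in muscle by 1.15 (SE 0.15, adjusted p 9.99e-05), and its log2 difference of urothelium from muscle was -0.25 (SE 0.15, adjusted p 0.137), which passed without the first 22-month section (-0.40, adjusted p 0.0419).

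Of the 10 genes, 9 were called higher in stroma-rich than in muscle-rich spots, against 40.1% of all genes called in either direction. Bmp5 had the largest log2 difference of the 10, 3.00 (SE 0.31, adjusted p 9.4e-05), from 9.73, 7.72, 1.80 and 4.89 CPM in muscle to 88.6, 87.5, 23.6 and 36.2 CPM in the stroma. Wnt2 was higher by 1.79 (SE 0.16, adjusted p 1.9e-05), Wnt4 by 1.21 (SE 0.19, adjusted p 0.000521) and Bmp4 by 0.49 (SE 0.12, adjusted p 0.00461). Shh (1.73, adjusted p 0.000526) and Wnt5a (0.93, adjusted p 0.00222) were also higher in the stroma-rich spots, and Grem1 was not called (-0.79, adjusted p 0.251). Stroma-rich spots also held more UMIs of the urothelial list than muscle-rich spots. The shares were 1.70%, 1.70%, 1.19% and 1.16% against 0.693%, 0.697%, 0.802% and 0.479%, and their part in these differences was not tested. Wnt4 and Bmp5 were higher in urothelium-rich than in muscle-rich spots as well, by 1.57 (adjusted p 9.32e-06) and 2.26 (adjusted p 5.5e-05). Bmp4, a fibroblast ligand, was lower in urothelium-rich than in muscle-rich spots, with 27.4, 20.6, 19.2 and 16.4 against 42.0, 37.9, 48.9 and 38.4 CPM and a log2 difference of -1.17 (SE 0.12, adjusted p 5.62e-07). Grem1 was called lower there too, by a log2 difference of -2.83 (SE 0.54, adjusted p 0.00029), but it rested on 1 to 19 UMIs per section and set, and the groups overlapped. The call of Wnt2 between urothelium-rich and muscle-rich spots (0.42, SE 0.16, adjusted p 0.0329) ended when the richest 10% of spots were taken in place of 25%, with a log2 difference of -0.002. It also ended without the first 22-month section (0.38, adjusted p 0.107) and without the second 14-month section (0.31, adjusted p 0.181).

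**Figure D4:**
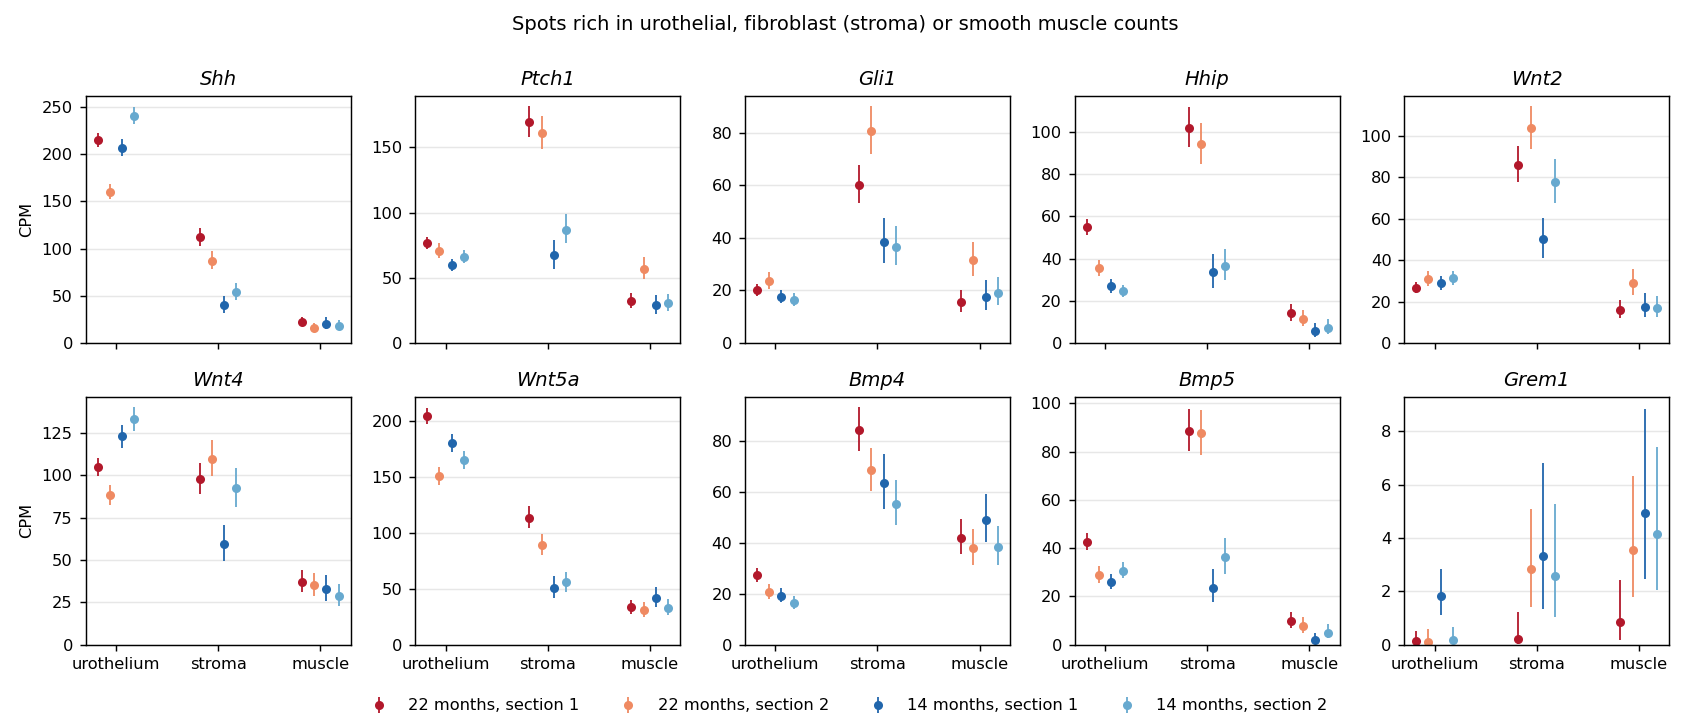
Level in CPM of each of the 10 genes in urothelium-rich, stroma-rich and muscle-rich spots, with 1 point per section and bars for the exact 95% Poisson interval of the count. Shh and Wnt5a are highest in urothelium-rich spots, Hhip in stroma-rich spots of all 4 sections (33.5 to 102 CPM), Bmp5 in those of 3 (in the first 14-month section it stands at 25.9 CPM in urothelium-rich and 23.6 CPM in stroma-rich spots), and Grem1 rests on few counts throughout.

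Other genes of the pathways were called in both directions between urothelium-rich and muscle-rich spots. Since 71.6% of all genes were called, most of the counts that follow lie near the background and nothing is read from them about a list. Of 10 Hedgehog receptors and signal carriers, 1 was called higher (Ptch1) and 8 lower in the urothelium-rich spots, with a median log2 difference of -2.13 against -0.01 for all genes. Gas1, a co-receptor, had a log2 difference of -4.27 (SE 0.30, adjusted p 3.46e-07) and the transcription factor Gli3 one of -3.09. Among Hedgehog targets 3 of 7 were higher and 2 lower, the lower ones being Foxf1 (-1.56) and Foxf2 (-0.90). Of 12 Wnt ligand and release genes tested, 5 were higher and 5 lower, with Wnt7b, an epithelial ligand, higher by 1.39 (SE 0.19, adjusted p 3.44e-05). Of 17 Wnt receptors 4 were higher and 10 lower, and the Wnt5a receptor Ror2 was lower with -3.68 (SE 0.18, adjusted p 2.55e-09). Wnt targets were lower in 6 of 8 cases, among them Nkd2 (-3.58). Of 10 Bmp ligands 3 were higher, Bmp2 by 2.57 (SE 0.19, adjusted p 2.22e-07), Bmp7 by 2.44 and Bmp5, and 7 were lower. The Bmp antagonists were lower in 8 of 11 cases, with Chrdl2 at -4.76. Of 8 Bmp targets, 2 were higher (Msx2 by 2.61, Id1 by 1.61) and 3 lower, Id4 by -3.86.

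Between sections of 22 and 14 months, no gene of 14995 tested was called with edgeR (0.0%), while 2488 genes had an unadjusted p under 0.05 and DESeq2 called 426 (2.84%). Hhip stood at 56.1 and 44.2 CPM in the 22-month and 24.6 and 22.8 CPM in the 14-month sections (TMM-normalised), a log2 difference of 1.09 (SE 0.13, adjusted p 0.0792). Ptch1 stood at 88.0 and 93.3 against 54.4 and 59.8 CPM, a difference of 0.67 (SE 0.09, adjusted p 0.0792). Bmp5 differed by 0.83 (SE 0.15, adjusted p 0.124) and Gli1 by 0.72 (SE 0.16, adjusted p 0.156). Bmp4 stood at 43.2 and 37.5 against 34.6 and 29.4 CPM, a difference of 0.34 (SE 0.12, adjusted p 0.253). The share of all genes with no overlap between the ages was not counted. Shh differed by 0.00 (SE 0.12, adjusted p 0.989) and its groups overlapped. The mean levels of the others at 22 and 14 months were 43.3 and 34.9 CPM for Wnt2, 88.7 and 93.5 for Wnt4, 126 and 108 for Wnt5a, and 1.35 and 1.89 for Grem1. With DESeq2 these 4 genes, Hhip, Ptch1, Bmp5 and Gli1, were called (adjusted p 9.67e-07 to 0.0198).

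In a comparison added after the data had been seen, of stroma-rich spots alone, 6 of the 9 genes tested were called higher at 22 months (Grem1 did not pass the filter on low counts), against 6.34% of 12501 genes called. They were Bmp5 by 1.52 (SE 0.19, adjusted p 0.0118), Hhip by 1.46 (SE 0.13, adjusted p 0.00746), Ptch1 by 1.07 (SE 0.15, adjusted p 0.015), Shh by 1.05, Wnt5a by 0.90 and Gli1 by 0.89. Wnt2, Wnt4 and Bmp4 were not called (adjusted p 0.182, 0.257 and 0.219). The stroma-rich spots of the older sections also held more UMIs of the urothelial list (1.70% and 1.70% against 1.19% and 1.16%) and fewer of the smooth muscle list (1.78% and 1.4% against 3.51% and 2.19%), and the part of this in the result was not tested. In muscle-rich spots alone, edgeR called 0 of the 10 genes and 0 of 11652 genes (0.0%) between the ages, while 765 genes had an unadjusted p under 0.05.

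Bulk RNA allowed the genes to be compared between intact and dissociated bladders. A gene here is called at an adjusted p under 0.05 in edgeR over 16538 genes. Of the 10 genes 6 were called, 5 higher and 1 lower in dissociated bladders, where 59.2% of all genes were called in either direction, so that the count is near the background. The 5 called higher were Gli1, Hhip, Wnt2, Bmp4 and Bmp5. Hhip stood at 49.5, 46.2 and 46.0 CPM in intact tissue and 170, 97.0 and 178 CPM in dissociated bladders, a log2 difference of 1.65 (SE 0.22, adjusted p 0.000494). Wnt2 stood at 63.1, 49.2 and 61.4 against 175, 117 and 146 CPM (1.34, SE 0.16, adjusted p 0.000347), and Bmp5 at 66.5, 62.2 and 60.98 against 153, 125 and 160 CPM (1.21, SE 0.10, adjusted p 6.23e-05). Every dissociated library lay above every intact one for these genes.

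Gli1, the transcriptional target, stood at 78.4, 66.6 and 74.5 CPM in intact tissue and 169, 99.7 and 170 CPM in dissociated bladders (1.00, SE 0.20, adjusted p 0.00368). Bmp4 stood at 58.1, 55.2 and 62.5 against 126, 95.7 and 97.9 CPM (0.86, SE 0.12, adjusted p 0.000583). Neither overlapped. Ptch1 was spread more widely, at 231, 184 and 236 CPM in intact and 403, 197 and 331 CPM in dissociated bladders (0.52, SE 0.24, adjusted p 0.102). Its groups overlapped through the second dissociated library, and without that library Ptch1 was called, with 0.78 and an adjusted p of 0.00353. DESeq2 called it with all libraries (adjusted p 0.0321).

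Of the other 4 genes, Wnt5a was called lower and Shh, Wnt4 and Grem1 were not called. Wnt5a fell in dissociated bladders, from 201, 179 and 200 CPM to 81.5, 64.7 and 63.9 CPM, a log2 difference of -1.46 (SE 0.11, adjusted p 3.84e-05) with no overlap. Shh stood at 75.3, 67.2 and 66.3 CPM in intact tissue and 53.7, 55.9 and 68.1 CPM in dissociated bladders (-0.23, SE 0.11, adjusted p 0.0938). Shh passed when library size alone was used for scaling (-0.34, adjusted p 0.0185) and without the third dissociated library (adjusted p 0.0119). Wnt4 stood at 82.7, 70.0 and 85.9 against 95.9, 68.5 and 89.2 CPM (0.09, SE 0.14, adjusted p 0.595). With library size alone it was -0.02, a shift like that of the median of all genes (from -0.03 to -0.14), and Wnt4 lay above that median under both. Grem1 stood at 0.332 to 0.716 CPM in intact and 0.603 to 0.928 CPM in dissociated bladders (0.40, SE 0.36, adjusted p 0.371).

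Cell makeup moved with the preparation. The summed level of the 10 smooth muscle markers was 44690 to 47210 CPM in intact tissue and 2729 to 4012 CPM in dissociated bladders, and all 10 were called lower. The fibroblast list summed to 12870 to 16040 CPM in intact tissue and 25880 to 37760 CPM in dissociated bladders, with 11 of 12 called higher. The urothelial list lay at 8601 to 9992 and 8683 to 13200 CPM, with 9 of 19 called higher and 6 lower. The mesothelial list, of a class that also held Wnt5a, summed to 346.6 to 423.5 CPM in intact tissue and 208.2 to 319.1 CPM in dissociated bladders, with 1 of its 6 tested genes called lower. The blood endothelial list, of a class with Bmp4 UMIs, summed to 431.6 to 504.5 and 731.1 to 913.8 CPM, with 8 of 10 called higher. Other lists moved too, with 10 of 11 macrophage or monocyte markers called higher and all 6 adipocyte markers called lower. The part of these shifts in the changes of the 10 genes was not tested, and in bulk RNA fewer cells of a type and less RNA per cell cannot be told apart. With library size alone as scaling, 38.3% of called genes were higher in dissociated bladders, against 47.2% with TMM, and the median of all genes moved from -0.03 to -0.14.

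**Figure D5:**
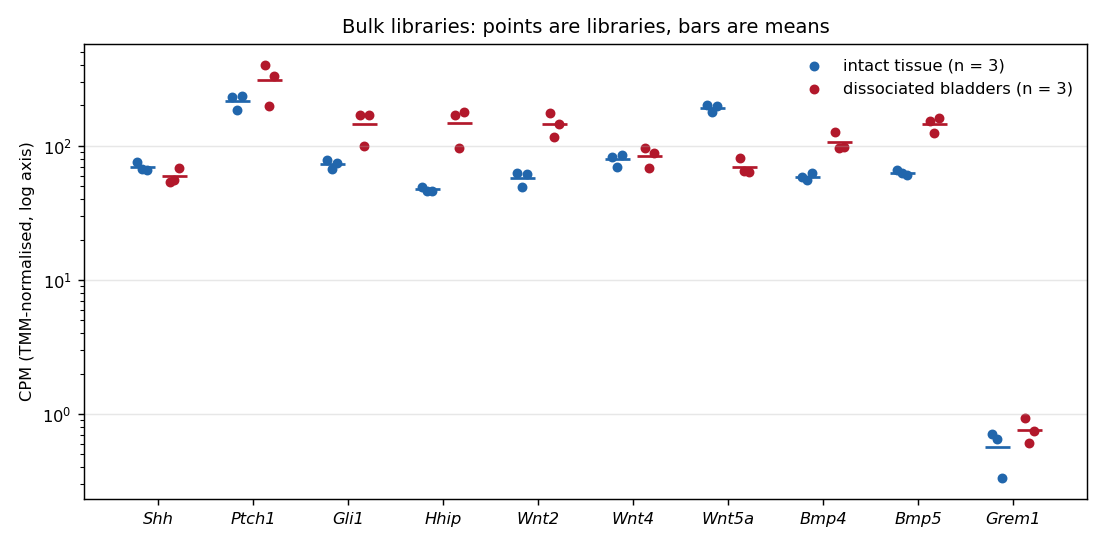
Level of each of the 10 genes in bulk RNA, in TMM-normalised CPM on a log axis, with points for libraries and bars for the mean of 3. Gli1, Hhip, Wnt2, Bmp4 and Bmp5 have all dissociated libraries above all intact ones, Wnt5a has them all below (63.9 to 81.5 against 179 to 201 CPM), and Shh, Ptch1, Wnt4 and Grem1 overlap.

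Around these genes, the bulk pathway lists held changes in both directions, beside 59.2% of all genes called, and nothing is read from the counts about a list. Of 5 Hedgehog ligand and release genes tested, Hhat was called higher and Scube2, a secreted factor that releases lipid-bearing Hedgehog ligand, fell from 85.0 ± 7.63 to 13.9 ± 2.03 CPM (SD, n = 3) with a log2 difference of -2.61 (SE 0.13, adjusted p 4.03e-06). Hedgehog targets were higher in 3 of 7 cases and lower in none, namely Gli1, Hhip and Foxf1 (0.63, SE 0.13, adjusted p 0.00389), with a median of 0.63 against -0.03 over all genes. Wnt ligand and release genes were higher in 6 of 13 and lower in 3 of 13 cases, with Wnt11 higher by 1.399 (SE 0.16, adjusted p 0.000207). Of 8 Wnt targets 1 was higher and 4 lower, with Nkd2 at -2.55 (SE 0.09, adjusted p 1.15e-06) and Nkd1 at -1.31. Of 11 Wnt inhibitors and amplifiers 7 were called higher, with Sfrp2 at 1.13, and 3 lower, with a list median of 0.88. Among the lower ones, the inhibitor Wif1 had a log2 difference of -3.56 (SE 0.48, adjusted p 0.000555). All 13 Bmp ligands tested were called, 7 higher and 6 lower. Among Bmp targets, Id3 rose by 1.83 (SE 0.11, adjusted p 8.66e-06) and the inhibitory Smad7 by 1.82 (SE 0.16, adjusted p 8.01e-05), whereas Id4 fell by 2.09 on the log2 scale (SE 0.08, adjusted p 1.75e-06).

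The 1 library of nuclei was set against the 5 whole-bladder cell libraries within a class. With 1 library on that side, the spread of nuclei was taken from that of the cells, and the p-values say nothing of how other libraries of nuclei would vary. In urothelial-like sums, Wnt4 stood at 138 CPM in nuclei against 49.0 ± 12.9 CPM in cells (TMM-normalised, SD, n = 5), a log2 difference of 1.49 (SE 0.34, adjusted p 0.0152), and Wnt5a at 238 against 117 ± 19.2 CPM (1.03, SE 0.25, adjusted p 0.02). These were the 2 of 9 genes called, where 35.2% of 13344 genes were called. Against the 12-month cell libraries alone, which match in age and sex mix, 4 of 9 were called, all higher in nuclei (Wnt4, Wnt5a, Ptch1 and Bmp4), where 52.8% of genes were called. Shh had a log2 difference of -0.21 (SE 0.27, adjusted p 0.585), which became 0.95 (adjusted p 0.0707) with library size alone as scaling, a setting that moved the median of all genes from -0.03 to 1.13. Relative to that median Shh was lower under both. Without the first 12-month library, Wnt5a gave 0.98 with an adjusted p of 0.0526. The stromal genes were low in this class in both, with mean levels in nuclei and cells of 22.7 and 10.1 CPM for Ptch1, 1.11 and 1.07 for Gli1, 1.33 and 2.95 for Hhip, 3.33 and 14.4 for Wnt2, 6.22 and 8.51 for Bmp4, and 2.00 and 6.11 for Bmp5. The direction of Bmp4 turned with the cell libraries used, as it was called higher in nuclei against the 12-month ones alone.

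In fibroblast-like sums, 3 of 9 genes were called, all lower in nuclei, where 23.9% of 12430 genes were called. Bmp5 stood at 12.8 CPM in nuclei against 206 ± 47.5 CPM in cells (-4.01, SE 0.54, adjusted p 0.00771), Wnt2 at 96.9 against 675 ± 177 CPM (-2.80, SE 0.54, adjusted p 0.0119) and Hhip at 34.2 against 192 ± 68.1 CPM (-2.49, SE 0.62, adjusted p 0.025). Ptch1, the receptor, stood at 219 against 183 ± 39.6 CPM (0.26, SE 0.35, adjusted p 0.612). The others, also not called, stood in nuclei and cells at 17.1 and 6.77 CPM for Shh, 59.8 and 42.9 for Gli1, 28.5 and 66.02 for Wnt4, 38.5 and 36.0 for Wnt5a, and 271 and 359 for Bmp4. With the 12-month cell libraries alone, 6 of 9 genes were called, among them Ptch1 (0.74, adjusted p 0.0336) and Gli1 as higher in nuclei, where 43.5% of genes were called. With library size alone Bmp5 was still called (-3.15), while Hhip (-1.60, adjusted p 0.0941) and Wnt2 (-1.95, adjusted p 0.059) were not, and the median of all genes moved from -0.32 to 0.56. The nuclei held 1 fibroblast-like cluster of 397 nuclei with 210 CPM of Car3, and the part of fibroblast makeup in these differences was not tested. The call of Hhip ended without the first 12-month library (-2.43, adjusted p 0.0504) and without the clusters led by smooth muscle markers (-2.20, adjusted p 0.0916).

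By age within a class, none of the 9 genes tested was called when whole-bladder libraries of 22 and 24 months were set against those of 3 and 12 months, with the sex mix as a term. No gene at all was called with edgeR among 12689 in urothelial-like (0.0%) and 11665 in fibroblast-like cells (0.0%), where 342 and 329 had an unadjusted p under 0.05 and DESeq2 called 1 and 8. Per-library levels of Hhip and Shh, given here without TMM scaling, show the spread that such a difference would have to exceed. Hhip in fibroblast-like cells stood at 134 and 229 CPM at 22 and 24 months and at 221, 179 and 86.7 CPM at 3 and 12 months. Shh in urothelial-like cells stood at 112 and 114 CPM in the older and 182, 106 and 102 CPM in the younger libraries, and the groups overlapped. The levels after these are TMM-normalised means of the older and the younger libraries, in that order. In fibroblast-like cells they were 187 and 145 CPM for Ptch1, 40.7 and 36.2 for Gli1, 615 and 586 for Wnt2, 60.9 and 56.8 for Wnt4, 20.3 and 39.99 for Wnt5a, 373 and 280 for Bmp4, and 204 and 167 for Bmp5. In urothelial-like cells Wnt4 stood at 43.5 and 41.1 CPM and Wnt5a at 109.5 and 94.4 CPM. The stromal genes there stood at 13.5 and 5.55 CPM for Ptch1, 1.21 and 0.728 for Gli1, 3.44 and 1.94 for Hhip, 20.9 and 6.82 for Wnt2, 12.9 and 3.64 for Bmp4, and 8.58 and 3.08 for Bmp5. For Ptch1, Gli1, Hhip, Bmp4 and Bmp5 the 22-month library held the highest urothelial-like value. The older means of these genes therefore lean on that library. Shh in fibroblast-like cells stood at 5.05 and 6.69 CPM.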

How the data were processed

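Per the submitters' processing notes, bcl2fastq, Cell Ranger, Space Ranger, Subread and featureCounts were used with mm10; versions, barcode filters and strand settings are not given in the sources used here. The authors deposited UMI counts per gene for cells, nuclei and spots, and read counts per gene for bulk RNA, all whole numbers. All 6 sample columns of the bulk table were used. The 10 genes, gene lists and tests were chosen with earlier results of these data known.

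Cells and spots under 500 UMIs, and cells with over 20% of counts from mitochondrial genes, were left out. Doublets were scored against simulated ones and taken out from the top of the score, 0.8% for every 1000 barcodes (0.78% to 7.27% of a library). Cells were clustered per library with scanpy 1.11.5 and leidenalg 0.10.2 (2000 variable genes, 30 components, 15 neighbours, resolution 1), without the 10 genes and pathway lists, and named from marker lists (score at least 0.25, at least 3 raised markers). Sums per library and class, or per section and spot set, and bulk counts were tested with edgeR 4.0.16 (R 4.3.3, quasi-likelihood, robust, TMM, filterByExpr, two-sided, Benjamini-Hochberg). SE is the absolute log2 fold change over the square root of F. DESeq2 1.42.0, other scalings, filters and left-out libraries were alternatives. Scripts were tested on simulated data. Whether bulk numbers pair the libraries is not stated, so they were not used as pairs. Same-number correlations of deviations were 0.28, 0.378 and -0.05, and those of different numbers lay between -0.502 and 0.298. Fibroblast, urothelial and spot lists hold none of the 10 genes.

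Each of the 10 genes is given in every comparison of the text where it passed the filter on low counts; Grem1 did not in the class sums and in stroma-rich spots by age. Of other pathway genes, up to 2 with the largest rise and 2 with the largest fall per list were eligible in bulk and in urothelium-rich against muscle-rich spots (adjusted p under 0.05, mean at least 1 CPM, no overlap). Like genes are the 3 with the highest r among genes of at least 10 CPM. The 53-cell detrusor cluster and Smo, Gas1, Boc, Foxf1 and Dhh by class were named after their values were seen.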

Additional observations from a re-analysis of the deposited data

Results flagged for a closer look

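Of 50 groups of 4 or 5 libraries or sections examined for a single value far from the others, 5 held one. The cut-off is one that flags about 1 in 20 groups of normally spread values. The groups share libraries and sections, so the number to come by chance is not known. Shh stood at 181.7 CPM in urothelial-like cells of the 3-month males, above the other 4 whole-bladder libraries. Bmp4 stood at 27.9 CPM in urothelial-like cells of the 22-month males, where the other 4 libraries lay at or under 8.80 CPM. In muscle-rich spots of the second 22-month section, Ptch1 stood at 56.9 CPM and Wnt2 at 28.93 CPM, above the other 3 sections. Grem1 stood at 1.823 CPM, from 19 UMIs, in urothelium-rich spots of the first 14-month section, where the other 3 sections held 1 or 2 UMIs.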

How the results depend on the processing

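The bulk result with the replicate number as a block (replicate block) called 10118 genes and 7 of the 10, Ptch1 being added at an adjusted p of 0.0285; the numbers are not known to pair libraries. Signs turned in some alternatives. Wnt4 in bulk gave -0.023 with library size alone. With a library left out it gave -0.001 to 0.244, the lowest without the second intact one. Wnt2 between urothelium-rich and muscle-rich spots gave -0.002 in the richest 10%. Shh between section ages gave -0.148 to 0.135 with a section left out. It stood at -0.073 without the first 14-month and -0.148 without the first 22-month section. Bmp4 between section ages gave -0.025 in muscle-rich spots, and Shh in urothelial-like nuclei gave 0.95 with library size alone. Bmp4 in urothelial-like nuclei lay below the mean of all cell libraries but was called higher against the 12-month ones alone. Leaving out 1 section at a time gave 3119 to 5148 genes called between stroma-rich and muscle-rich spots, the lowest without the first 22-month section. Without section as a block, 6 of the 10 genes were called between urothelium-rich and stroma-rich spots (56.6% of all genes). Between urothelium-rich and muscle-rich spots 7 of the 10 were then called (68% of all genes). Between section ages, genes called were 426 with DESeq2, 287 with no filter, 792 in stroma-rich spots (added later) and 0 to 300 with a section left out, and of the 10 genes 4, 3, 6 and 0 to 3. For nuclei, the 12-month libraries alone gave 4 urothelial-like and 6 fibroblast-like calls of 9 genes tested (52.8% and 43.5% of all genes called), 2 of the 6 being higher in nuclei, library size alone 1 fibroblast-like call, and left-out libraries 1 to 3 urothelial-like calls and 1962 to 3141 fibroblast-like genes. For age within classes, urothelial-like genes called were 1 with DESeq2, 141 with no filter (2 of them among the 10) and 1 to 30 with a library left out, and fibroblast-like genes 8, 27 and 0 to 167. The cause was not tested in any of these. Of the other log2 differences named in the text, 23 values gained and 16 lost a call under some alternative, and 499 kept their side. Grem1 is limited by its few counts.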
